A study of Mus musculus with 4 samples.

Results

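The genes described here encode splicing factors and heterogeneous nuclear ribonucleoproteins (hnRNPs), measured in cells labelled as mouse group 3 innate lymphoid cells (ILC3s). They were defined by a rule on gene symbols, which was chosen with earlier results of these data known. The rule took symbols that start with Srsf, Hnrnp, Sf3a, Sf3b, Snrp, Prpf, U2af or Rbm followed by a digit. This gave 98 genes of 19504 with a named row, and a gene with several rows is represented by its brightest one on average. By family these were 10 Srsf, 19 Hnrnp, 11 Snrp, 9 Sf3a and Sf3b, 2 U2af, 12 Prpf and 35 Rbm genes. The name Rbm marks an RNA-binding motif rather than a pathway, so that family also holds genes with other roles. RefSeq lists 97 of the genes as protein coding and 1, Rbm46os, as a long non-coding RNA. Srsf7, Hnrnpa1 and Snrpn were not analysed here.

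Each of the 4 Affymetrix arrays is labelled as ILC3s of 1 genotype. The first is from circZbtb20-/- mice, which lack a circular RNA made from the Zbtb20 gene, and it is set against the array of circZbtb20+/+ mice. The third is from Nr4a1-/- mice, which lack an orphan nuclear receptor induced early after lymphocyte stimulation, and it is set against the array of Nr4a1+/+ mice. The cells were sorted as lineage negative, CD90 high and CD45 low. The sources used here give no age, sex, tissue, treatment, knockout method or number of pooled mice. Each genotype has a single array, so a knockout cannot be tested against its own wild type and no value has a replicate error. Values are the deposited log2 values, and a difference is a log2 difference, knockout minus its wild type unless another pair is named. A gene is called higher or lower here when it differs by at least 1, which is 2-fold where the log2 scale holds as deposited, and the larger value reaches the median of its array. In what follows, 2 values set against each other in a pair are the knockout and then its wild type. Array medians lay between 4.34 and 4.51. The difference between the wild types, Nr4a1 minus circZbtb20, serves as background.

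Splicing removes introns in the nucleus through the spliceosome, which is built from small nuclear ribonucleoproteins (snRNPs) named U1, U2, U4, U5 and U6. A ring of Sm proteins coats most of their RNAs, U1 and U2 with SF3A, SF3B and U2AF mark the ends of the intron, and the PRPF proteins build and drive the catalytic stages. SR proteins (Srsf genes) bind exons and mostly promote splicing, while hnRNPs coat nascent transcripts and often repress it, and together they set exon choice. In lymphocytes such regulators are known for the exon switch of Ptprc, which encodes CD45. The rows used here measure a gene as a whole, so they show the RNA level of the splicing factors and not splicing itself.

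Promoter windows are shown for members that moved together or apart. The 3 subunits of SF3A come first because the array of the circZbtb20 knockout divided them while that of the Nr4a1 knockout did not. Hnrnpa0 and Hnrnpab follow as related genes of the A/B type, called with opposite signs in the circZbtb20 knockout, although the call of Hnrnpab ended against the other wild type, at -0.67. Each window is the stretch directly before the RefSeq start of the gene, up to 250 bases, cut where it met another RefSeq gene, in build GRCm38.p6. Capitals mark matches on either strand to the motifs searched. The motif of ETS factors was CCGGAAG. The NF-Y box was written CCAAT. The E-box, a site of MYC and related factors, was CACGTG. The TATA box was TATAAA, and the motif of NRF1 was searched too.
Sf3a1, chr11:4160294-4160353, plus strand: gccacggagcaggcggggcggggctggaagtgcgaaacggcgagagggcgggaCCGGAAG
Sf3a3, chr4:124714611-124714860, plus strand: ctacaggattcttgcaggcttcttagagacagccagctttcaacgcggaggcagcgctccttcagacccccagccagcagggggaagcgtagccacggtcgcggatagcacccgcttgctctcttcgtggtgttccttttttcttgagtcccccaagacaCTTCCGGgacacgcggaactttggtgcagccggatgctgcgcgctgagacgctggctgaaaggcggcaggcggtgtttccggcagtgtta
Sf3a2, chr10:80798627-80798734, plus strand: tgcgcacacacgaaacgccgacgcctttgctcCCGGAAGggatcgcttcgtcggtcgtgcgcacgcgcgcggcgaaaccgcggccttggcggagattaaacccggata
Hnrnpa0, chr13:58128557-58128806, minus strand: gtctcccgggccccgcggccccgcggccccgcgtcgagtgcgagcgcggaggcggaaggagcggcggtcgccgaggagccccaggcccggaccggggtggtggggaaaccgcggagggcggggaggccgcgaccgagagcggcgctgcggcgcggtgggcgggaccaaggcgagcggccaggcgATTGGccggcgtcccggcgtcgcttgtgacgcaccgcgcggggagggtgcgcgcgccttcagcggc
Hnrnpab, chr11:51606882-51607131, minus strand: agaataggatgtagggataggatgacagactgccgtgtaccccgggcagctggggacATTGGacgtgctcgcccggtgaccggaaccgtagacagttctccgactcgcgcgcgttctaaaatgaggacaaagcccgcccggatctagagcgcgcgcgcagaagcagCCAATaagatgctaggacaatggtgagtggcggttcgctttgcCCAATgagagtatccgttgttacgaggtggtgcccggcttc

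All 3 SF3A windows held 1 match to the ETS motif, although Sf3a2 differed from Sf3a1 and Sf3a3 in sign in the circZbtb20 knockout. Hnrnpa0 held 1 match to CCAAT and Hnrnpab held 3. RefSeq windows were found for 82 of the 98 genes, 105 windows in all, each searched over the 250 bases before the start. The ETS motif was in 23.8% of the members' windows, against 9.25% of the 19142 windows of genes with a row and 6.91% of all 32851 windows. CCAAT was in 44.8% of the members' windows and in 33.8% of all windows. Against windows of genes with a row, CACGTG was in 9.52% and 6.87%, TATAAA in 11.4% and 11.4%, and the NRF1 motif in 0.952% and 1.12%. The windows of the members were also richer in G and C, at a median of 59.6% against 56.0%, with a median of 19 CpG against 10. The part of base composition in these shares was not tested, and windows of 1 gene can overlap. Among members higher in both knockouts the ETS motif was in 19.0% of 21 windows, and among those lower in the circZbtb20 knockout and higher in the Nr4a1 knockout in 36.4% of 22. CCAAT was in 38.1% and 59.1% of the same windows. These shares rest on few genes and are descriptions with no test.

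The members were mostly well above the middle of the arrays. Of 98 genes, 83 were at or above the array median on all 4 arrays, and 7 were below it on all 4, namely Rbm20, Rbm31y, Rbm44, Rbm46, Rbm46os, Rbm47 and Srsf12. The median member stood at 8.86 in the circZbtb20 knockout and 8.36 in its wild type. It stood at 9.50 in the Nr4a1 knockout and 8.14 in its wild type. Over all genes those medians were 4.42, 4.51, 4.38 and 4.54 in the same order. No member was at the ceiling of the table, 19.93. Values near or under an array median carry little signal over background, so differences that rest on one are less certain in size. Among those below this holds for Hnrnpll, Prpf19, Prpf40b, Prpf3, Rbm10 and Rbm24, and for Clk2 and Lsm14b outside the members.

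**Figure D1:**
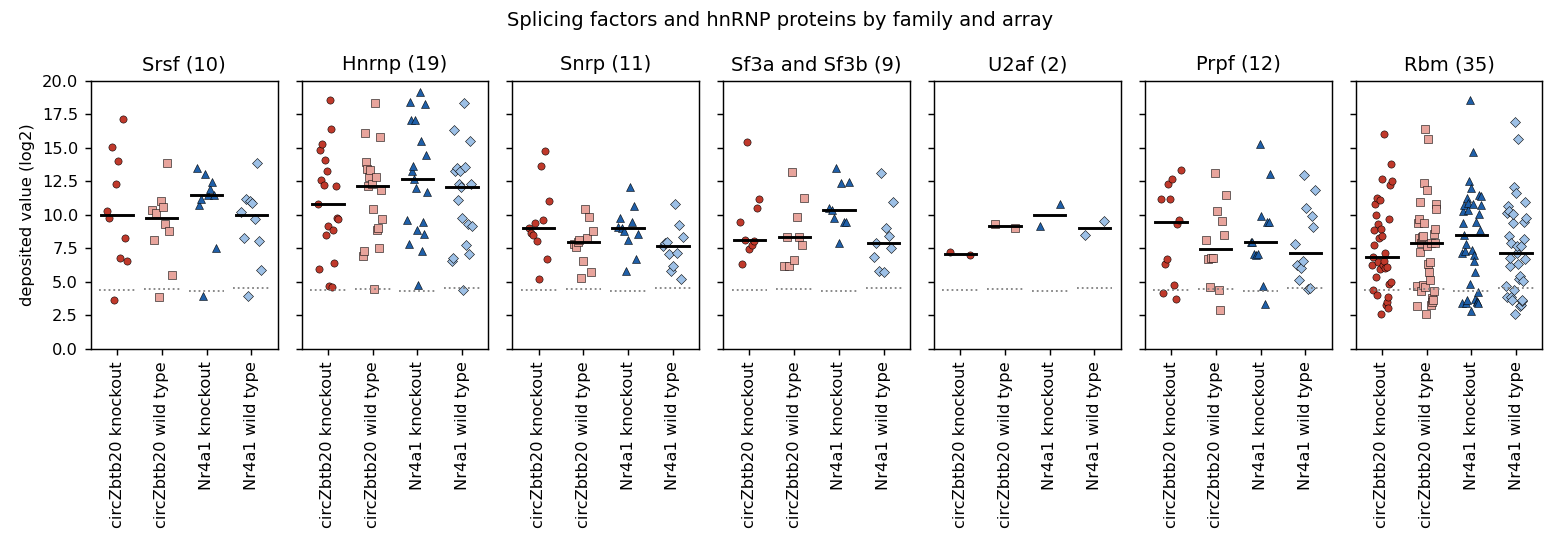
Deposited log2 value (vertical axis) of each member on the 4 arrays (horizontal axis), 1 panel per family with its number of genes. Points are genes, black bars family medians and dotted grey lines the array median over all rows. On the Nr4a1 arrays the Sf3a and Sf3b median is 10.33 for the knockout and 7.88 for the wild type, and both U2af genes are lowest in the circZbtb20 knockout.

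The arrays differed in content, and these differences accompany every count below. The row of Nr4a1, the targeted gene, was at 11.63 in the Nr4a1 knockout against 18.11, and at 15.98 in the circZbtb20 knockout against the ceiling of 19.93. No row is named for circZbtb20 itself, and whether the Nr4a1 row lies in the deleted part was not examined. T cell markers, 14 measured and each one called higher, had a median level of 16.25 on the Nr4a1 knockout array against 6.08. Of 12 ILC3 markers 11 were called lower there, with medians of 5.49 against 15.39. The other, Il22, was at the ceiling of 19.93 on both Nr4a1 arrays, which gives no difference. Id2 and Il7r were lower but still at 15.48 and 13.40 in the knockout. All 24 measured cell cycle genes were also higher there, with medians of 8.77 against 4.96 and differences from 1.76 to 7.87. By most of the T cell and ILC3 markers the array goes against its label as ILC3s. It is called here the array labelled as the Nr4a1 knockout or, for short, the Nr4a1 knockout. On the circZbtb20 knockout array the ILC3 markers had a median of 16.94 against 15.74 and the T cell markers 5.28 against 4.74. Of the 12 ILC3 markers 6 were called higher there and 5 lower, and of the 14 T cell markers 4 higher and 3 lower. Of 7 epithelial markers 4 were higher and 1 lower, and of 9 myeloid markers 0 were higher and 4 lower. There 8 of 9 pancreatic acinar markers were lower, with medians of 4.64 against 10.89, as were 6 of 7 markers of NK cells and ILC1s and all 4 of ILC2s. On the Nr4a1 knockout array 9 of 9 acinar, 7 of 7 epithelial and 8 of 9 myeloid markers were lower. So were 6 of 7 markers of NK cells and ILC1s and all 4 of ILC2s. On the circZbtb20 knockout array cell cycle genes had medians of 5.02 against 4.93, with 3 of 24 higher and 6 lower. In bulk samples fewer cells of a type and less RNA per cell cannot be told apart. The part of these genes in the results was not tested, and on single arrays genotype and content cannot be told apart.

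The wild types differed less in these genes than either knockout did. Their content differed too, with 8 of 9 acinar markers lower and 6 of 7 epithelial and 5 of 9 myeloid markers higher in the Nr4a1 wild type. Of 98 members, 2 were called higher and 9 lower in the Nr4a1 wild type than in the circZbtb20 wild type. That is 11.2% of the members, where the same rule called 8.36% of all genes, 4.65% higher and 3.71% lower. The background among the 10139 genes whose mean over the 4 arrays was at least 4.43, the mean of the array medians, was 14.2%, with 7.85% higher and 6.32% lower. The median member differed by -0.10 and the median absolute difference was 0.42. Prpf40b, a protein associated with the U1 snRNP, differed the most, with 4.52 in the Nr4a1 wild type against 2.92 in the other. Rbm38, which binds mRNA and is known as a p53 target, was at 7.69 against 6.34, a difference of 1.35. Rbm41 differed by -1.29, Rbm6 by -1.26, Snrpd3 by -1.16 and Rbm24 by -1.14. None of the 10 Srsf or 9 Sf3a and Sf3b genes was called between the wild types.

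In the circZbtb20 knockout the splicing genes moved in both directions. Of 98 members, 38 were higher and 24 lower than in its wild type, or 63.3%, where the same rule called 26.6% of all genes. Over all genes it called 15.6% higher and 11.1% lower. Among the 10139 genes of the same expression class it called 46.3% (27.2% higher, 19.1% lower), and 68.5% of the 89 members in that class. The snRNP core and the SR proteins were mainly higher, with 8 of 11 Snrp and 6 of 10 Srsf genes, each with 1 lower. Hnrnp genes leaned the other way, with 4 higher and 9 lower of 19, and both U2af genes were lower. The median member differed by 0.52, against 0.04 over all genes and 0.13 in the expression class. Against both wild types 34 members were higher and 18 lower, where this rule called 20.1% of all genes, 12.2% higher and 7.91% lower.

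In the Nr4a1 knockout the splicing genes that passed the rule were mostly higher. Of 98 members, 50 were higher, 2 lower and 46 not called, so 53.1% were called, where the rule called 30.3% of all genes. By direction the rule called 18.3% of all genes higher and 11.9% lower. In the expression class it called 52.7%, with 32.4% higher and 20.3% lower, and of the 89 members there 50 higher and 1 lower, or 57.3%. In either direction the members' share thus lay near that of the class, and the direction is where they differ. The median member differed by 1.02, against 0.00 over all genes and 0.27 in the class. After quantile normalization of the deposited values it was 0.64, and after cyclic loess 0.53. Called higher were 8 of 9 Sf3a and Sf3b, 9 of 11 Snrp, 11 of 19 Hnrnp and 6 of 10 Srsf genes. The share was smaller in the Prpf family, with 4 of 12, and in the Rbm family, with 11 of 35. Both of these lay near the 32.4% called higher in the class. Against both wild types 42 members were higher and 1, Srsf5, lower, where this rule called 24.2% of all genes, 15.6% higher and 8.63% lower.

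A fit with an error term was possible only with both wild types as 1 group, which takes the spread of a knockout from the difference between the wild types. In that limma fit over all genes, 21 members passed a Benjamini-Hochberg adjusted p of 0.05 in the Nr4a1 knockout, all higher, where it called 11.2% of all genes and 7.32% higher. In the circZbtb20 knockout it called 0 members and 0 genes, with a smallest adjusted p of 0.0511. At an unadjusted p under 0.05 it had 59 members, 38 higher and 21 lower, against 24% of all genes.

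The SR proteins divided into genes that were higher in 1 knockout or in both. Srsf1, the prototype of the family, was at 10.26 against 10.33 in the circZbtb20 pair and at 13.53 against 10.23 in the Nr4a1 pair. Srsf6 was at 8.29 against 8.81 in the circZbtb20 pair and at 11.51 against 8.08 in the Nr4a1 pair. For both genes the Nr4a1 knockout alone stood apart, by 3.30 and 3.43, while the other 3 arrays lay close together. Srsf11, Srsf3 and Srsf5 had their highest value in the circZbtb20 knockout instead. Srsf11 was at 15.09 against 10.17 in the circZbtb20 pair, a difference of 4.92, and at 11.20 against 11.16 in the Nr4a1 pair. Srsf3, the smallest SR protein and an adaptor for mRNA export, was at 13.99 against 10.58 and at 11.51 against 10.90. Srsf5 was at 17.14 against 13.86 in the circZbtb20 pair and at 12.49 against 13.90 in the Nr4a1 pair. It was the only member called higher in the circZbtb20 knockout, by 3.28, and lower in the Nr4a1 knockout, by -1.41.

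Other Srsf genes were higher in both knockouts or split the other way. Srsf2, also known as SC35 and a marker of nuclear speckles, was at 12.30 against 11.05 in the circZbtb20 pair and at 13.08 against 11.06 in the Nr4a1 pair. Its circZbtb20 difference was 0.75 after quantile normalization and 0.85 after cyclic loess, under the size of a call. Srsf10, whose activity is set by dephosphorylation in heat shock, was at 9.75 against 8.13 and at 10.77 against 8.26. Srsf9 was higher by 1.09 and 1.65. For these 3 genes both wild types lay below both knockouts. Srsf4 was at 6.79 against 9.28 in the circZbtb20 pair and at 11.93 against 9.71 in the Nr4a1 pair. Its order was thus Nr4a1 knockout, wild types, circZbtb20 knockout, with differences of 2.22 and -2.49. Srsf12 was below the median of all 4 arrays, between 3.65 and 3.93.

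The hnRNPs of the A/B type are abundant nuclear proteins that bind exonic and intronic silencers. Hnrnpa2b1, which is also described as a reader of m6A-marked RNA, was at 14.86 in the circZbtb20 knockout against 16.14, and at 18.45 in the Nr4a1 knockout against 16.37. Hnrnpab was at 12.58 against 13.97 and at 17.06 against 13.25. Both were lowest in the circZbtb20 knockout and highest in the Nr4a1 knockout, but against the other wild type Hnrnpab differed by -0.67 in the circZbtb20 knockout. Hnrnpa0 was at 10.84 against 6.89 in the circZbtb20 pair, a difference of 3.95, and at 9.64 against 6.55 in the Nr4a1 pair, a difference of 3.09. It was thus high in both knockouts and low in both wild types, unlike Hnrnpab, whose promoter window is shown beside its own. Hnrnpd, or AUF1, which binds AU-rich elements of cytokine mRNAs, was at 12.21 against 12.16 in the circZbtb20 pair and at 13.65 against 11.13 in the Nr4a1 pair. Its relative Hnrnpdl was higher by 1.28 in the circZbtb20 knockout and differed by 0.34 in the Nr4a1 knockout. Hnrnpa1l2-ps2 is listed with a pseudogene name and may share probes with Hnrnpa1, and it differed by -1.39 and 1.02.

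The next hnRNPs held the greatest differences of the family. Hnrnpf, which binds G-rich runs, was at 8.52 in the circZbtb20 knockout against 13.34 in its wild type, and in the Nr4a1 pair at 17.08 in the knockout against 13.24. The wild types were nearly equal and the knockouts lay 8.56 apart, a range over the 4 arrays passed among the members only by Rbm3. Hnrnpu, also called SAF-A and a scaffold protein of chromatin and RNA, was at 12.18 against 15.79 and at 18.31 against 15.49. Its relative Hnrnpul1 was at 9.76 against 11.89 and at 14.47 against 12.29. These 3 genes shared 1 pattern, lower in the circZbtb20 knockout and higher in the Nr4a1 knockout. Hnrnpul2 differed by 0.04 and 2.50, and Hnrnpr by -1.13 and 1.53. Among relatives of Hnrnpf, Hnrnph2 was also called lower in the circZbtb20 knockout, with differences of -1.32 and -0.92. Hnrnph1 differed by 0.95 and -0.07, and Hnrnph3, near the array medians, by 0.22 and 0.34.

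Hnrnpl and Hnrnpll bind CA-rich elements and are known regulators of the Ptprc exon switch in T cells. Hnrnpl was at 16.44 in the circZbtb20 knockout against 12.84, and at 15.55 in the Nr4a1 knockout against 13.60. Hnrnpll was at 4.62 in the circZbtb20 knockout, near the array median of 4.38, against 8.85 in its wild type. In the Nr4a1 pair it was at 7.29 against 7.75. The paralogues thus differed with opposite signs in the circZbtb20 knockout, by 3.60 and -4.23. Against the other wild type Hnrnpll was lower, with a difference of -3.13. The row of Ptprc itself was at 12.66 against 11.89 in the circZbtb20 pair and at 15.93 against 12.54 in the Nr4a1 pair, and it does not separate the exon forms.

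Hnrnpk and Hnrnpc were among the brightest members. Hnrnpk, a binder of C-rich RNA and DNA, was at 18.55 against 18.38 and at 19.19 against 18.37, and differed by less than 1 in both pairs. Hnrnpc, which binds uridine tracts and guards against inclusion of cryptic exons, was at 15.31 against 13.41 in the circZbtb20 pair and at 13.30 against 13.48 in the Nr4a1 pair. Hnrnpc was bright on all 4 arrays and brightest in the circZbtb20 knockout. Hnrnpm stayed between 8.83 and 9.43 on all 4 arrays.

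**Figure D2:**
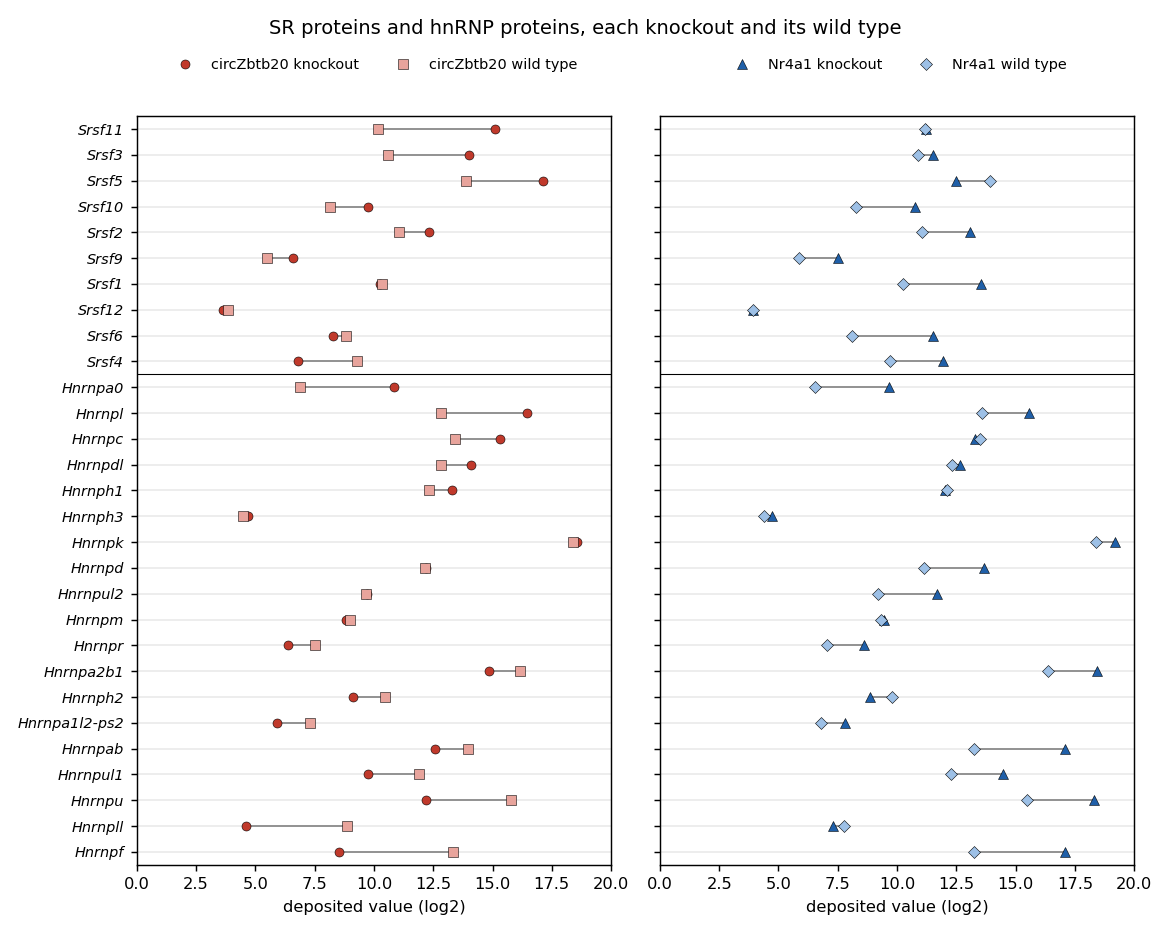
Deposited log2 value (horizontal axis) of the Srsf genes (upper block) and Hnrnp genes (lower block), with each circZbtb20 array in the left panel and each Nr4a1 array in the right, joined by a line per gene. Genes are ordered within a family by the circZbtb20 difference, and Hnrnpf is at 8.52 for the circZbtb20 knockout and 17.08 for the Nr4a1 knockout.

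Sm proteins form the ring on the U1, U2, U4 and U5 RNAs, and 7 of the 8 listed genes were measured. In the circZbtb20 knockout 4 were higher and 1 lower, and in the Nr4a1 knockout 6 were higher and 0 lower. Snrpe was at 14.79 against 9.87 in the circZbtb20 pair, a difference of 4.92, and at 10.64 against 9.23 in the Nr4a1 pair. Snrpd2 was at 13.65 against 10.41 and at 12.06 against 10.80. Snrpg was at 11.05 against 8.78 and at 8.55 against 8.36. All 3 were highest in the circZbtb20 knockout. Snrpd3 was at 9.60 against 8.27 and at 9.47 against 7.11, but its wild types were themselves 1.16 apart. Snrpd1 was at 5.20 against 6.53 in the circZbtb20 pair and at 8.10 against 6.16 in the Nr4a1 pair, and it was the only Sm gene called lower, a call that ended against the other wild type, at -0.96. Snrpb differed by 0.52 and 1.06, and Snrpf by 0.98 and 1.47. Members of 1 ring, all parts of the same particle, thus spread from -1.33 to 4.92 in the circZbtb20 knockout.

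Of 19 measured members of U1 and U2, which include SF3A, SF3B and U2AF, 9 were higher and 4 lower in the circZbtb20 pair. In the Nr4a1 pair 12 were higher and 1 lower. The shares of all genes called were 26.6% and 30.3% in the same order, and those of the expression class 46.3% and 52.7%. Snrpa, the U1-A protein, differed by 1.19 and 1.45, and Snrpa1 and Snrpb2, of U2, by 1.06 and 1.86 and by 1.26 and 1.70. Against the other wild type Snrpa1 differed by 0.80 in the circZbtb20 knockout and Snrpb2 by 0.68 in the Nr4a1 knockout, so these calls ended. Snrpc, the U1-C protein that helps in recognising the start of the intron, was at 8.04 against 5.28 in the circZbtb20 pair and at 5.79 against 5.80 in the Nr4a1 pair. It stood apart on the array of the circZbtb20 knockout alone.

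SF3A and SF3B are parts of the U2 snRNP that clamp it to the branch site. Sf3a1 was at 9.48 in the circZbtb20 knockout against 6.19, and at 10.51 in the Nr4a1 knockout against 6.85. Sf3a3 was at 8.12 against 6.18 and at 9.79 against 5.81. Sf3a2, the remaining subunit, was at 6.36 against 8.33 and at 10.33 against 7.88. All 3 subunits were highest in the Nr4a1 knockout, by 3.66, 3.98 and 2.45, while in the circZbtb20 knockout they differed by 3.29, 1.94 and -1.97. The same division was seen in SF3B. Sf3b1, which holds the branch site and is a frequent mutation target in blood cancers, was at 15.45 against 13.18 and at 13.50 against 13.16. Sf3b3 was at 7.73 against 9.80 and at 12.35 against 9.04. Sf3b5 was at 10.54 against 7.74 and at 9.49 against 7.55. Sf3b1 was the only SF3 gene not called in the Nr4a1 knockout, where it differed by 0.34. Sf3b2, Sf3b4 and Sf3b6 differed there by 2.23, 1.02 and 1.49, and in the circZbtb20 knockout by 0.82, -0.36 and -0.04.

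U2AF recognises the end of the intron, U2af2 its pyrimidine tract and U2af1 the final AG. U2af1 was at 7.19 in the circZbtb20 knockout against 9.34, and at 9.14 in the Nr4a1 knockout against 8.50. U2af2 was at 6.99 against 9.05 and at 10.80 against 9.56. Both subunits were lowest in the circZbtb20 knockout, by -2.15 and -2.06, and against the other wild type by -1.31 and -2.57. In the Nr4a1 knockout U2af2 was higher by 1.24, and U2af1 differed by 0.64.

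The PRPF proteins act at several stages, and their differences were unequal. Prpf8, the scaffold of the catalytic centre, was at 13.32 against 11.48 in the circZbtb20 pair and at 13.06 against 11.82 in the Nr4a1 pair. Prpf3, of the U4/U6 particle, was at 6.32 against 4.62 and at 7.10 against 5.14. Both were higher in both knockouts. Prpf38a, needed for activation of the spliceosome, was at 12.34 against 6.75 in the circZbtb20 pair and at 7.06 against 6.54 in the Nr4a1 pair. Its difference of 5.59 was the highest of all members in the circZbtb20 knockout. Its relative Prpf38b was at 11.21 against 13.11 and at 15.29 against 12.99, with differences of -1.90 and 2.30. Prpf18, which acts in the second step of splicing, was at 11.15 against 8.10 and at 7.99 against 7.82. Prpf39, of the U1 snRNP, was at 12.67 against 10.31 and at 9.91 against 10.54. Prpf18 and Prpf39, like Prpf38a, were thus called higher in the circZbtb20 knockout and not called in the Nr4a1 knockout.

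Prpf19, the ubiquitin ligase at the heart of the complex that carries its name, was at 4.19 in the circZbtb20 knockout against 6.66, and at 7.99 in the Nr4a1 knockout against 6.24. The first of these values lies under its array median of 4.38. Prpf6, a bridge within the tri-snRNP, was higher by 1.11 in the circZbtb20 knockout and differed by 0.38 in the Nr4a1 knockout. Prpf31, Prpf4 and the kinase gene Prpf4b were called in neither pair. Prpf40b was at 3.37 in the Nr4a1 knockout against 4.52, and passed the rule of size, with a difference of -1.15, as its wild type value just reached the array median of 4.51. Against the other wild type it differed by 0.45.

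**Figure D3:**
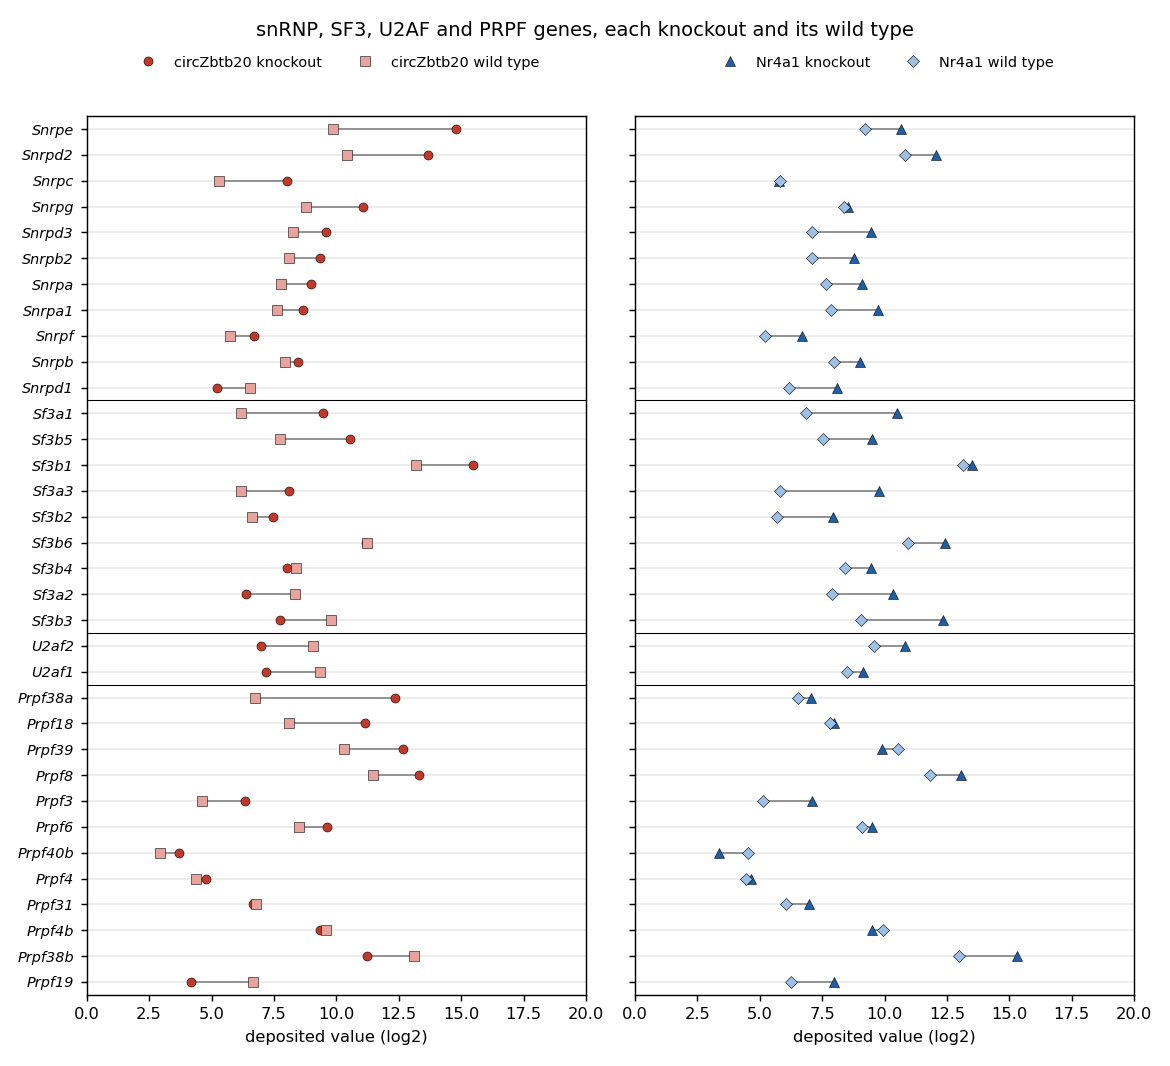
Deposited log2 value (horizontal axis) of the Snrp, Sf3a and Sf3b, U2af and Prpf genes, in blocks from top to bottom, with the circZbtb20 arrays in the left panel and the Nr4a1 arrays in the right. Lines join a knockout and its wild type, and Prpf38a at 12.34 against 6.75 is the longest line to the right in the left panel.

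Rbm3 had the greatest range of all members. This cold-inducible RNA-binding protein is also known to favour translation. It was at 8.97 in the circZbtb20 knockout against 16.40 in its wild type, and in the Nr4a1 pair at 18.61 in the knockout against 16.96. Its difference of -7.43 in the circZbtb20 knockout was the lowest of all members, and it was -7.99 against the other wild type. Cirbp, its cold-inducible relative outside the name rule, was at 7.32 against 7.29 in the circZbtb20 pair and at 5.30 against 7.40 in the Nr4a1 pair. The pair of relatives therefore did not move together on either array.

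Rbm5, Rbm6 and Rbm10 are related splicing regulators, and Rbm5 and Rbm6 are neighbours on chromosome 9. Rbm5 was at 12.24 against 8.96 in the circZbtb20 pair and at 11.48 against 9.49 in the Nr4a1 pair. Rbm6 was at 5.01 against 7.92 and at 8.86 against 6.66. Rbm10 was at 6.22 against 4.66 and at 7.16 against 4.67. All 3 were higher in the Nr4a1 knockout, while in the circZbtb20 knockout the neighbours differed with opposite signs, by 3.28 for Rbm5 and -2.91 for Rbm6. The wild types also differed for Rbm6, and against the other wild type it differed by -1.65 in the circZbtb20 knockout and by 0.94, no longer a call, in the Nr4a1 knockout. Neighbouring Rbm12b2 and Rbm12b1 on chromosome 4 differed by -0.79 and -2.51 in the circZbtb20 knockout and by -0.38 and -0.74 in the Nr4a1 knockout. Rbm4b and Rbm4 on chromosome 19 differed by 1.10 and 0.87, and by 1.86 and 0.70. Probes may not separate such close copies, and the 4 rows of Rbm4 gave circZbtb20 differences from 0.53 to 3.14.

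Other Rbm genes act in the spliceosome or on its products. Rbm22, which contacts the catalytic RNA, was at 11.24 against 8.34 and at 11.25 against 7.86. Rbm8a, or Y14, a core protein of the exon junction complex, was at 12.53 against 10.47 and at 11.39 against 9.73. Both were higher in both knockouts. Rbm7, which brings nuclear RNA to the exosome, was at 13.79 against 10.79 in the circZbtb20 pair and at 10.76 against 10.96 in the Nr4a1 pair. Rbm18 was at 9.98 against 7.23 and at 7.33 against 6.21. Rbm38 was at 6.24 against 6.34 in the circZbtb20 pair and at 10.81 against 7.69 in the Nr4a1 pair. Rbm7 and Rbm18 were thus highest in the circZbtb20 knockout and Rbm38 in the Nr4a1 knockout.

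Among the remaining Rbm genes, Rbm19, a nucleolar protein, was at 5.37 against 7.92 in the circZbtb20 pair and at 7.79 against 6.80 in the Nr4a1 pair. Rbm24, known from muscle, was at 6.46 against 4.79 and at 3.61 against 3.65. Rbm41 was higher by 1.30 in the Nr4a1 knockout but differed by 0.01 when set against the circZbtb20 wild type. Rbm39, the target of the sulfonamide degrader indisulam, was at 16.07 against 15.64 and at 14.73 against 15.63, and was called in neither pair. Rbm15, a partner of the m6A writer, was at 7.73 against 8.24 and at 8.52 against 8.41. Rbm17, Rbm25 and Rbm33 were also called in neither pair. Of the 35 Rbm genes, 10 were higher in the circZbtb20 knockout and 7 lower, and 11 higher and 0 lower in the Nr4a1 knockout. In the circZbtb20 knockout 48.6% of them were called, against 26.6% of all genes and 46.3% of the expression class. The share in the Nr4a1 knockout was 31.4%, against 30.3% and 52.7%. The first share lay near that of the class and the second near that of all genes.

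**Figure D4:**
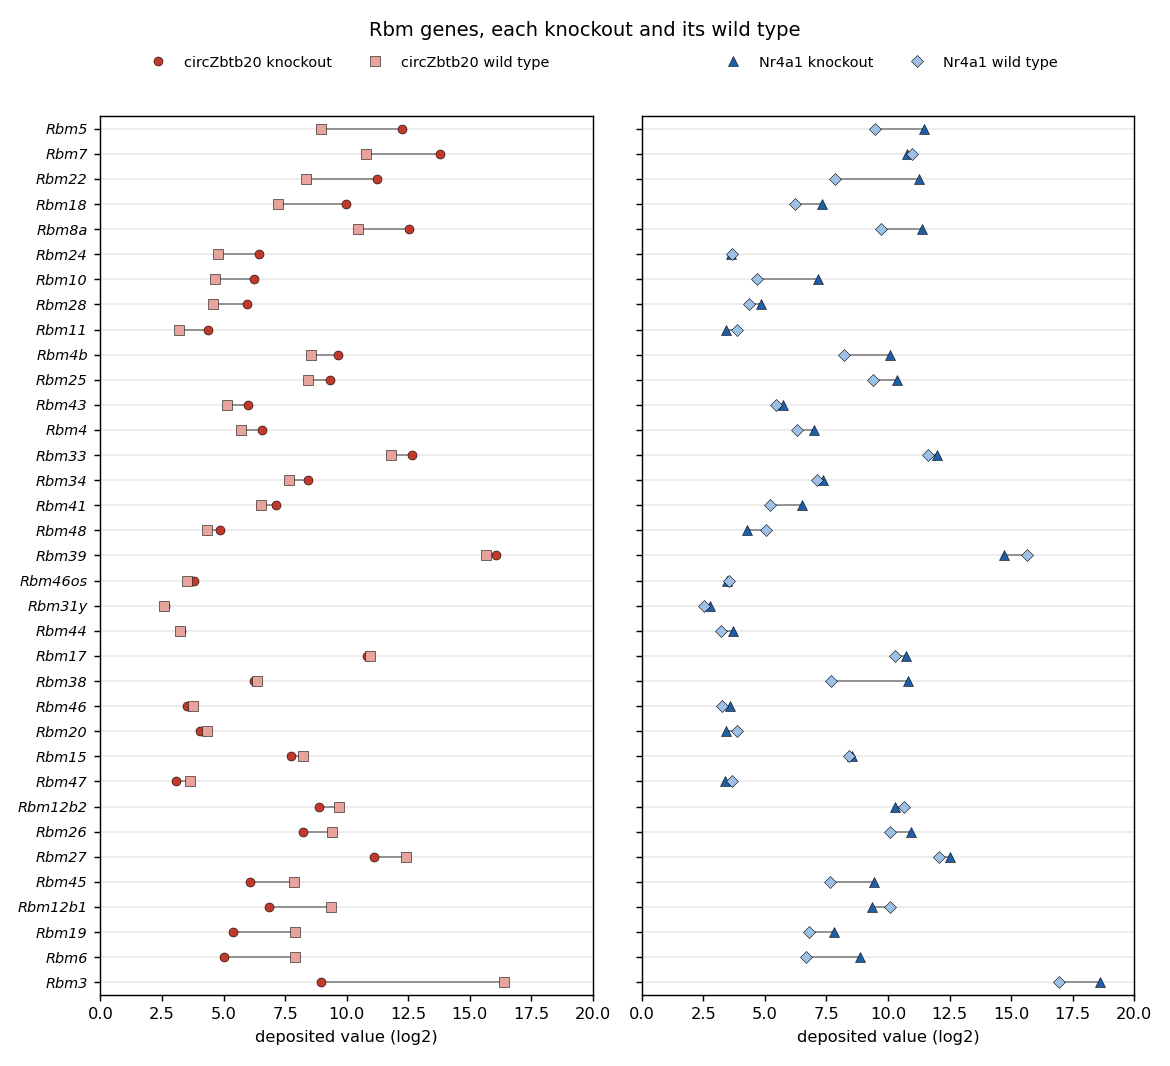
Deposited log2 value (horizontal axis) of the 35 Rbm genes, ordered by the circZbtb20 difference, with the circZbtb20 arrays in the left panel and the Nr4a1 arrays in the right, joined by a line per gene. Rbm3, in the last line of the panels, lies at 8.97 in the circZbtb20 knockout against 16.40 in its wild type.

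The knockout comparisons share no array, so their values can be set side by side. Of the 98 members, 22 were higher in both knockouts, 17 were lower in the circZbtb20 knockout and higher in the Nr4a1 knockout, and 24 were called in neither. The reverse of the split, higher in the circZbtb20 knockout and lower in the Nr4a1 knockout, held for Srsf5 alone, and 0 members were lower in both. Another 15 were higher in the circZbtb20 knockout only, 7 lower there only, 11 higher in the Nr4a1 knockout only and 1, Prpf40b, lower there only. Over all genes 1024 were higher in both, 577 were lower and then higher, 571 were higher and then lower, and 635 were lower in both. Called in neither were 11218 of the 19504 genes. In the circZbtb20 knockout only, 1440 genes were higher and 945 lower, and in the Nr4a1 knockout only, 1973 higher and 1121 lower. Whether the knockouts differ in a gene was not tested. Against the other wild type 10 calls ended in the circZbtb20 knockout, those of Hnrnpa1l2-ps2, Hnrnpab, Hnrnph2, Hnrnpr, Prpf6, Rbm11, Rbm27, Snrpa1, Snrpd1 and Srsf9. In the Nr4a1 knockout 9 ended, those of Hnrnpa1l2-ps2, Prpf40b, Rbm18, Rbm41, Rbm6, Rbm8a, Snrpb2, Snrpe and Snrpf. In the circZbtb20 knockout 63.3% of members and 26.6% of all genes were called against its own wild type. Against both wild types the shares were 53.1% and 20.1%. In the Nr4a1 knockout they were 53.1% and 30.3%, and then 43.9% and 24.2%.

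The 22 members higher in both came from several stages of splicing, with 6 Snrp, 6 Rbm, 3 Srsf, 3 Sf3, 2 Hnrnp and 2 Prpf genes. Some of these calls depended on scaling. After quantile normalization the circZbtb20 differences were 0.75 for Srsf2, 0.63 for Snrpa1, 0.82 for Snrpb2 and 0.87 for Snrpd3. After cyclic loess they were 0.85, 0.59, 0.80 and 0.86, all under the size of a call. The strongest in both, by the smaller of the differences, were Sf3a1, Hnrnpa0, Rbm22, Rbm5, Hnrnpl, Sf3a3, Sf3b5 and Prpf3. The 17 that split were led by Hnrnpf, Hnrnpu, Srsf4, Rbm6, Hnrnpul1, Sf3b3, Sf3a2 and Prpf38b, by the same measure. Of these 17, 7 were Hnrnp genes, a family that holds 19 of the 98 members. Against the other wild type the circZbtb20 differences of Hnrnpa1l2-ps2, Hnrnpab and Hnrnpr were -0.88, -0.67 and -0.69, no longer calls. The Nr4a1 call of Hnrnpa1l2-ps2 ended too, at 0.51.

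**Figure D5:**
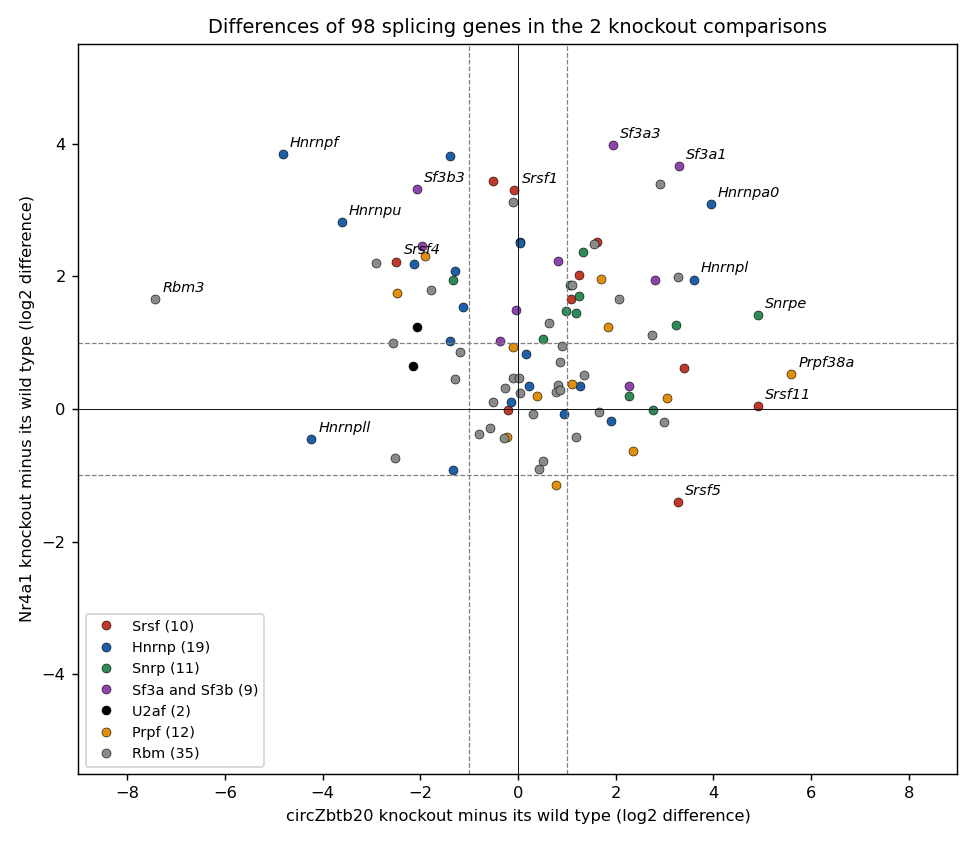
Log2 difference in the Nr4a1 knockout (vertical axis) against that in the circZbtb20 knockout (horizontal axis), each minus its own wild type, for the 98 members coloured by family. Dashed lines mark differences of 1 and -1, and few points lie below the lower dashed line, where Srsf5 is at -1.41.

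Other spliceosome genes outside the name rule were taken from written lists. Their counts stand against a background of 26.6% of all genes called in the circZbtb20 pair and 30.3% in the Nr4a1 pair, and 46.3% and 52.7% in the expression class. Several of the shares lie near those of the class, and nothing is read from them about the lists. Of 22 further proteins of the U snRNPs, 8 were higher in the circZbtb20 knockout and 4 lower, and 11 higher and 0 lower in the Nr4a1 knockout. Eftud2, the GTPase of the U5 snRNP, differed by -2.95 in the circZbtb20 pair and by 2.79 in the Nr4a1 pair, and Phf5a, of SF3B, was at 10.87 against 8.33 and at 9.52 against 7.86. Ppih, a cyclophilin of the tri-snRNP, was at 12.38 in the Nr4a1 knockout against 7.66. Of 13 LSm genes, many of which serve U6 or mRNA decay, 5 were higher and 2 lower, and then 10 higher and 0 lower. Lsm6 was higher by 3.76 in the circZbtb20 knockout, and Lsm14b, of cytoplasmic granules, by 4.90 in the Nr4a1 knockout. Of 15 genes of snRNP assembly, 5 were higher and 1 lower, and then 9 higher and 0 lower. Clns1a, which delivers Sm proteins to assembly, was at 5.03 against 7.52 and at 10.54 against 7.58, and Gemin5, which reads the snRNA, was at 9.92 in the Nr4a1 knockout against 5.89.

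Further lists cover later steps. Of 27 genes of the Prp19 complex and the catalytic steps, 9 were higher in the circZbtb20 knockout and 4 lower, and 12 higher and 2 lower in the Nr4a1 knockout. Ctnnbl1 was at 10.24 against 7.12 and at 10.19 against 5.74. The helicase gene Dhx8 was higher by 3.10 and 2.50, and Dhx38 was lower, with a difference of -3.21 in the circZbtb20 knockout. Isy1 had 9.57 in the Nr4a1 knockout against 14.03, a difference of -4.46. Of 16 measured genes of the exon junction complex and nonsense-mediated decay, 4 were higher and 4 lower, and then 7 higher and 0 lower. Alyref, an mRNA export factor, differed by -1.56 and 2.89.

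Kinases that phosphorylate SR proteins differed in both directions. Clk1, which drives SR proteins out of speckles, was at 19.87 in the circZbtb20 knockout against 16.85, and at 11.80 in the Nr4a1 knockout against 16.86. Its relative Clk4 was at 14.88 against 14.21 and at 11.07 against 13.37. Srpk1, which phosphorylates SR proteins in the cytoplasm, was at 12.76 against 10.39 and at 14.07 against 10.63. Clk3 was at 12.23 against 10.11 and at 12.25 against 10.63, and Clk2 at 7.84 against 4.15 and at 4.61 against 4.11. Of the 4 Clk genes, 2 were thus lower, 1 higher and 1 not called in the Nr4a1 knockout. Pnisr was higher by 4.24 in the circZbtb20 knockout. The list of 14, which is not of kinases alone and includes Pnisr and Srrm2, had 5 higher in the circZbtb20 knockout and 2 lower. In the Nr4a1 knockout it had 6 higher and 2 lower.

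Of 51 further regulators of alternative splicing, of which 1, Srsf12, is also a member, 15 were higher in the circZbtb20 knockout and 10 lower, and 18 higher and 6 lower in the Nr4a1 knockout. Ptbp2, which represses exons, was at 11.93 against 8.36 in the circZbtb20 pair and at 8.58 against 8.73 in the Nr4a1 pair. Mbnl3 was at 12.92 against 9.57 and at 7.13 against 9.20. Pcbp2, a binder of C-rich RNA, was at 14.03 against 16.85 and at 18.52 against 16.88. Tia1, a stress granule protein, was at 11.06 in the Nr4a1 knockout against 6.47, and Fubp1 at 16.53 against 12.07. The median of this list was 0.29 in the circZbtb20 knockout, where that of the 98 members was 0.52, and 0.32 in the Nr4a1 knockout, where that of the members was 1.02. These differences were not tested.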

How the data were processed

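RNA of sorted cells labelled as ILC3s was hybridised to Affymetrix mouse arrays, 1 per genotype. The deposited log2 values were made by the authors with Affymetrix Power Tools and RMA, per the submitters' processing notes, with no version or setting stated. The deposited table has a ceiling of 19.93 of unstated origin, and its range is wider than is usual for RMA values, so the size of a log2 difference may not be a true fold. Probe rows were named from the platform annotation, which is that of another Affymetrix mouse array than the design text names, and 19571 rows had 1 gene symbol. The row IDs follow the annotation. Gene coordinates are not printed because no build is stated for the array rows, and promoter windows are RefSeq's (GRCm38.p6). Differences and counts were computed in Python 3.11.15 with pandas 2.3.3 and numpy 2.4.6, and figures with matplotlib 3.10.9. The limma 3.58.1 alternative in R 4.3.3 used both wild types as 1 group, with 1 residual degree of freedom, and was tested on simulated data. A knockout is assumed there to vary like the wild types. The 4 arrays limit the precision, and no replicate exists.

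The members and gene lists were chosen with earlier results of these data known. Named were fixed genes of each family, the 4 highest and 4 lowest called differences per family, the strongest genes called in both knockouts, up to 6 between the wild types, and up to 2 of the highest and lowest from each further list. Genes outside this rule, among them Clk3, Clk4, Srpk1, the further relatives and the neighbours, were named after their values were seen. Alternatives were quantile and cyclic loess normalization, a shared median, no filter, a difference of 2, the mean of rows, members at the ceiling left out, the other wild type, the mean of both wild types, and limma.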

Additional observations from a re-analysis of the deposited data

How the results depend on the processing

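No paired analysis was possible because each genotype has 1 array. With a difference of at least 2, the circZbtb20 knockout had 20 members higher and 13 lower, the Nr4a1 knockout 24 higher and 0 lower, and the wild types 0 higher and 0 lower, since a stricter threshold calls fewer genes. In limma with both wild types as 1 group, counts at a Benjamini-Hochberg adjusted p under 0.05 were 0 higher and 0 lower for the circZbtb20 knockout, and 21 higher and 0 lower for the Nr4a1 knockout. The 2 members lower in the Nr4a1 knockout became 5 by quantile normalization, 5 by cyclic loess, 1 with a shared median and 4 against the other wild type. Between the wild types cyclic loess left 1 higher. The median member in the Nr4a1 knockout, 1.02 as deposited, was 0.64 by quantile normalization, 0.53 by cyclic loess and 1.19 with a shared median, which moved the median of all genes by 0.17. The cause was not tested. Prpf40b differed by 0.45 in the Nr4a1 knockout against the other wild type, a reversed sign. Under the remaining alternatives the circZbtb20 knockout had 28 to 41 members higher and 20 to 26 lower, and the Nr4a1 knockout 42 to 54 higher. No member was at the ceiling, so leaving such members out changed nothing. Levels near the array median carry little signal over background.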
